A study of Mus musculus with 2 samples.

Results

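The genes described here are 29 genes of cholesterol and fatty acid synthesis, read from the RNA bound by Ago2 in TM4 cells, a mouse Sertoli cell line. They were chosen by symbol: 16 enzymes that turn acetyl-CoA into cholesterol, 5 genes that control the sterol-sensing transcription factors SREBP, the sterol carrier Stard4, 5 genes of fatty acid synthesis and the efflux transporters Abca1 and Abcg1. All 29 symbols were among the 22609 gene rows of the count tables, and 27 of them had at least 20 counts over both libraries together, as did 12186 genes in all. The study transfected TM4 cells with a mimic of the microRNA miR-471-5p or with a scrambled control, collected them after 48 h and pulled down RNA with an antibody to Ago2, the protein that carries microRNAs to their target transcripts. Both groups were the same line, grown in DMEM. The labels for growth differ in detail, and not all of them name fetal bovine serum. They give no genotype, strain, age or passage for the line. Each condition was 1 library, so every value below compares the mimic library with the scramble library, without a replicate check and without a p-value. The count tables hold pulled-down RNA, and a lower count can stand for less transcript or for less of it bound to Ago2, which cannot be told apart. Nor can fewer cells of a type be told apart from less RNA per cell.

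Cholesterol is built from acetyl-CoA, first through the mevalonate pathway to farnesyl diphosphate, then through squalene and lanosterol to the finished sterol. The genes of this route are switched on together by SREBP2, encoded by Srebf2, which the escort protein Scap carries to the Golgi for cleavage when membranes are short of cholesterol. Insig1 and Insig2 hold Scap back when sterols are plentiful. SREBP1, from Srebf1, acts more on fatty acid synthesis, whereas Abca1 and Abcg1 answer to the oxysterol receptors LXR and carry cholesterol out of the cell. Sertoli cells, which nurse germ cells and engulf their dying remains, handle large amounts of lipid.

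The microRNA and the places in these transcripts that pair with its seed are shown here because Ago2 was pulled down after the microRNA was added. The mature sequence is from RefSeq (GRCm38.p6, chrX:66792634-66792655, minus strand), with the seed, bases 2 to 8, in capitals. The complement of the seed (ACTACGT, read in the direction of the transcript and called a 7mer-m8 match) lay in the longest annotated 3′-UTR of 2 of the 27 genes with at least 20 counts, against 1.56% of 11751 genes with at least 20 counts and a 3′-UTR. The match in Lss was an 8mer, with the further A that follows the seed match, and the match in Hsd17b7 was not. In the lines of the transcripts, the match is in capitals with 7 bases of its surroundings on each side. The Lss match lay at chr10:76555218-76555224 on the plus strand and the Hsd17b7 match at chr1:169952055-169952061 on the minus strand, both in GRCm38.
miR-471-5p: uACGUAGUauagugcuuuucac
Lss: gatcttcACTACGTagtccag
Hsd17b7: tttgttgACTACGTtttcttt
In coding regions, 2 of the 27 genes held a 7mer-m8 match, Acly with 2 and Fdft1 with 1, against 4.34% of 11767 genes. The other 23 genes held no 7mer-m8 match in either region. With the 3′-UTR of the transcript that has the longest coding region, the Hsd17b7 match was lost and the count was 1.

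Most of the genes were lower in the mimic library. Of 27 genes, 14 were at least 1.5-fold lower and 1 was at least 1.5-fold higher, whereas 8.94% of the 12186 genes were that much lower and 11.7% that much higher. The list was chosen with earlier results of these data known, so this comparison is not independent of them. The log2 ratio of mimic to scramble had a median of -0.64 over the 27 genes and of -0.001 over all genes. It lay below 0 in 23 of the 27 genes, against 50.1% of all genes. Each ratio has an exact 95% interval for counting error, and this interval lay below 0 in 20 genes, above 0 in 3 and across 0 in 4. The share of all genes with such intervals was not computed. With many counts an interval leaves out 0 even at a small ratio, as for Scd2 at 0.06 (0.02 to 0.10). These interval counts therefore do not set the members apart from other genes. At 2-fold, 1 of the 27 genes was lower and 0 were higher, beside 2.95% and 3.96% of all genes, so that 13 of the 14 lower genes lay between 1.5-fold and 2-fold. In the plot of levels by library, genes with many counts such as Cyp51 and with few such as Tm7sf2 were both lower.

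**Figure D1:**
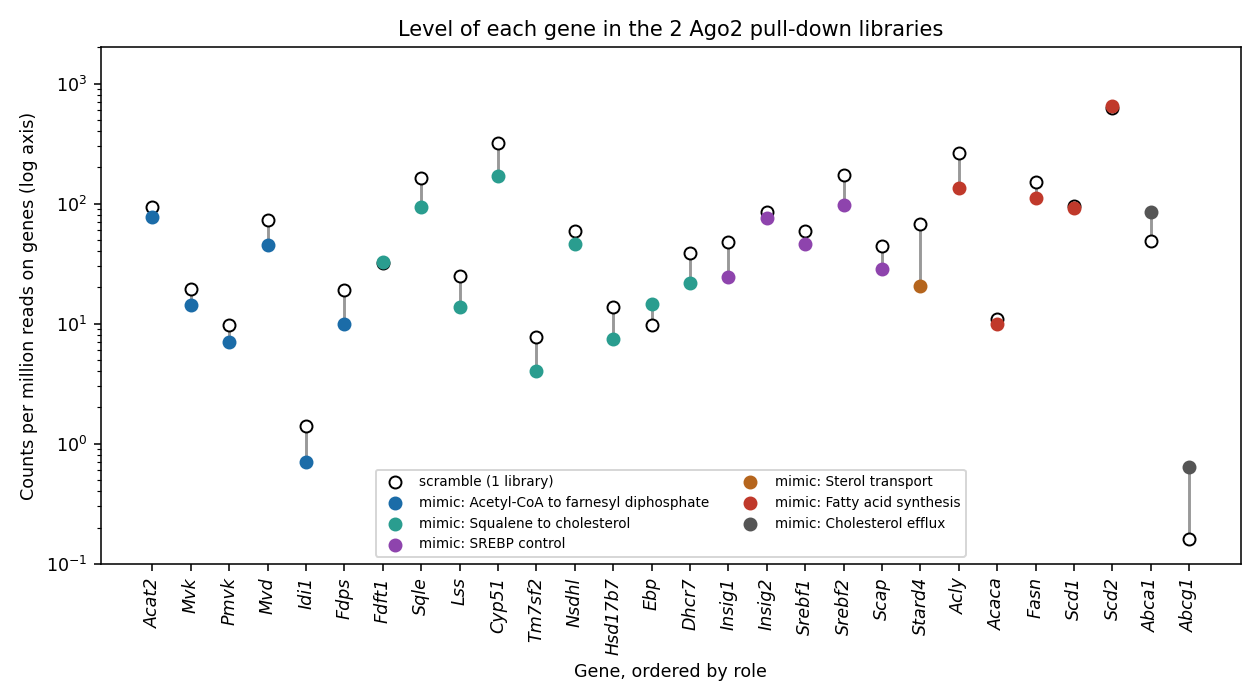
Level of 28 of the 29 genes in the scramble library (open circles) and the mimic library (filled circles, coloured by role), in counts per 1000000 reads on genes (CPM) on a log axis; Hmgcs1, listed at 0 in both libraries, is not drawn. The filled circle lies below the open one for most synthesis and SREBP control genes and clearly above it for Ebp, Abca1 and Abcg1, with Fdft1 and Scd2 nearly level.

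In the mevalonate pathway, 3 of the 6 genes with at least 20 counts were at least 1.5-fold lower, and all 6 had a log2 ratio below 0, with a median of -0.59. Mvd, which makes isopentenyl diphosphate, had 836 counts with the mimic and 1362 with the scramble. Its log2 ratio was -0.70, with a counting interval of -0.83 to -0.58. Fdps, which joins isoprene units into farnesyl diphosphate, had 187 and 358 counts, a log2 ratio of -0.94 with an interval of -1.20 to -0.68. Both intervals lay below 0 and overlapped each other, and the difference between Mvd and Fdps was not computed. Idi1, the isomerase between them, had only 13 and 26 counts, and its interval, from -2.08 to 0.01, reached 0.

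Acat2, Mvk and Pmvk, at the start of the route, were nearer to their scramble values than Mvd. Acat2, the thiolase that joins acetyl-CoA, had 1447 counts with the mimic and 1737 with the scramble, a log2 ratio of -0.26 (-0.37 to -0.16). The kinases Mvk and Pmvk, which phosphorylate mevalonate, had 268 against 364 and 131 against 181 counts, with log2 ratios of -0.44 and -0.47. All 3 were lower in the mimic library by less than the fold set, with intervals below 0. After a regression of the ratios on transcript length and GC content, Mvk was at -0.63 and Pmvk at -0.89, both past 1.5-fold, beside -1.01 for Mvd. Hmgcs1, which makes the precursor of mevalonate, was listed at 0 in both libraries, so it has no ratio. The annotation used for counting is not given in the sources used here, so this 0 does not show that the gene is silent.

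From squalene to cholesterol, 6 of 9 enzymes were at least 1.5-fold lower, and the median log2 ratio was -0.83. Cyp51, the lanosterol demethylase and the most counted enzyme of the route, had 3141 counts with the mimic and 5954 with the scramble. Its log2 ratio was -0.92, with the narrow interval of -0.99 to -0.86. Sqle, the squalene epoxidase and the second control point of the route, had 1734 and 3019 counts, a log2 ratio of -0.80 (-0.89 to -0.71). Lss, which closes the sterol rings, had 257 and 465 counts, a log2 ratio of -0.85 (-1.08 to -0.63). Lss held an 8mer seed match, and Cyp51 had no 7mer-m8 match in its 3′-UTR or coding region. They differed by -0.07 in log2 ratio (Cyp51 minus Lss, -0.30 to 0.16), an interval that holds 0 and does not show that they moved alike. According to the paper, transcripts more bound to Ago2 with the mimic were likelier to hold seed matches. Lss and Hsd17b7, with a 3′-UTR match, were instead lower here, at -0.85 and -0.89. Whether Ago2 bound these matches was not tested.

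The late enzymes Dhcr7, Hsd17b7 and Tm7sf2 were each at least 1.5-fold lower. Dhcr7, which makes cholesterol from its last precursor, had 404 counts with the mimic and 718 with the scramble, a log2 ratio of -0.83. The sterol ketone reductase Hsd17b7 had 139 and 258 counts and a log2 ratio of -0.89 (-1.20 to -0.59). The sterol reductase Tm7sf2 had 75 and 143 counts and a log2 ratio of -0.93 (-1.35 to -0.52). Their intervals overlapped throughout. Of the exons of Tm7sf2, 12.1% of bases also lie in exons of Vps51 on the same strand, and the part this has in its counts was not tested.

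Not all enzymes of the route were lower. Fdft1, the squalene synthase, had 605 counts with the mimic and 600 with the scramble, a log2 ratio of 0.01 (-0.15 to 0.18). Its difference from Sqle, the next enzyme, was -0.81 (Sqle minus Fdft1), with an interval below 0. Of the exon bases of Fdft1, 18.3% overlap Ctsb on the opposite strand, and 30.7% of its 50-base stretches occur in transcripts of other genes, whose part in its counts was not tested. Nsdhl, which removes a carboxyl group from the ring, had 856 and 1110 counts, a log2 ratio of -0.38 (-0.51 to -0.25). Ebp, the sterol isomerase just before the last steps, went the other way with 270 and 183 counts, a log2 ratio of 0.56 (0.28 to 0.84). Ebp fell just short of 1.5-fold, and it differed from Dhcr7 by 1.39 (Ebp minus Dhcr7, 1.07 to 1.71). Over the 15 synthesis enzymes with at least 20 counts, 9 were at least 1.5-fold lower and 0 that much higher, with a median of -0.80.

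**Figure D2:**
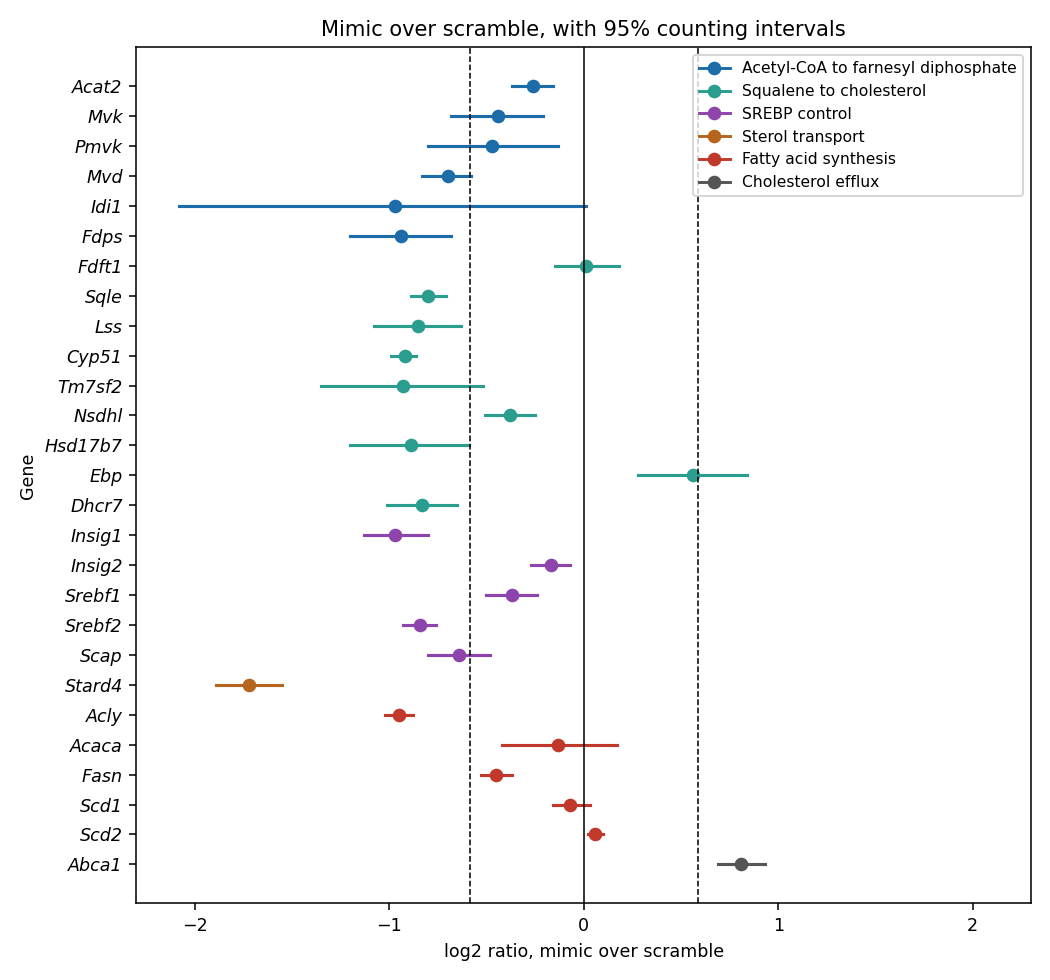
log2 ratio of mimic to scramble for the 27 genes with at least 20 counts, grouped and coloured by role; lines are 95% counting intervals, and dashed lines mark 1.5-fold. Stard4 stands farthest to the left at -1.72, 13 genes, most of them sterol enzymes, lie between -0.97 and -0.64, and Abca1 lies past the fold on the right at 0.81.

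Among the control genes, Srebf2 and its escort were lower together with the enzymes. Srebf2 had 1804 counts with the mimic and 3239 with the scramble, a log2 ratio of -0.84 (-0.93 to -0.76). Scap had 531 and 829 counts, a log2 ratio of -0.64 (-0.80 to -0.48). Srebf1 had 853 and 1105 counts, a log2 ratio of -0.37 (-0.50 to -0.24). Srebf2 was thus lower by more than Srebf1, with a difference of -0.47 (-0.62 to -0.32).

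The 2 Insig genes also differed from each other. Insig1, which is itself a strong SREBP target, had 460 counts with the mimic and 899 with the scramble, a log2 ratio of -0.97 (-1.13 to -0.80). Insig2, whose transcript depends less on SREBP, had 1412 and 1588 counts, a log2 ratio of -0.17 (-0.27 to -0.07). Insig1 minus Insig2 was -0.80 (-0.99 to -0.60). Per kilobase of the longest annotated transcript, the level of Insig2 was 28 CPM with the mimic and 31.5 with the scramble, and that of Insig1 was 9.13 and 17.9. In all, 3 of the 5 control genes were at least 1.5-fold lower. All 5 had intervals below 0, for which the share over all genes was not computed.

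Of the 27 genes with at least 20 counts, Stard4 was farthest from its scramble value. It encodes a soluble carrier that moves cholesterol between membranes, and it is a known SREBP2 target. It had 383 counts with the mimic and 1262 with the scramble, 30.4% of the scramble level. Its log2 ratio was -1.72 (-1.89 to -1.55), and 0.6% of the 12186 genes had a ratio as low. Stard4 was the only one of the 27 genes more than 2-fold lower, and it was lower than Srebf2 by a further -0.88 (Stard4 minus Srebf2, -1.06 to -0.69).

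Fatty acid synthesis was not uniform. Acly, which makes the cytosolic acetyl-CoA used for both sterols and fatty acids, had 2547 counts with the mimic and 4908 with the scramble. Its log2 ratio was -0.95 (-1.02 to -0.88), the only one of the 5 past 1.5-fold. Fasn, the fatty acid synthase, had 2080 and 2840 counts, a log2 ratio of -0.45 (-0.53 to -0.37). Acly minus Fasn was -0.50 (-0.60 to -0.39). After the regression on length and GC content Fasn was at -0.16.

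The other lipogenic enzymes were near their scramble values. Acaca, the acetyl-CoA carboxylase that commits carbon to fatty acids, had 186 and 203 counts, a log2 ratio of -0.13 (-0.42 to 0.17), which turned to 0.22 after that regression. Scd1, a desaturase, had 1711 and 1792 counts, a log2 ratio of -0.07 (-0.16 to 0.03), and its neighbour Scd2 had 12204 and 11706 counts, a log2 ratio of 0.06 (0.02 to 0.10). Scd2 had the highest level of all the members per kilobase of transcript, 120 CPM with the mimic and 115 with the scramble. Against these, Cyp51 had 42.8 and 81.1 on the same scale. The median log2 ratio over the 5 genes was -0.13.

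Of the efflux genes, Abca1 was higher. Abca1, which loads cholesterol onto lipoproteins at the cell surface, had 1584 counts with the mimic and 902 with the scramble, 175% of the scramble level. Its log2 ratio was 0.81 (0.69 to 0.93), higher than in 93.6% of all genes, and Abca1 minus Srebf2 was 1.66, with an interval above 0. Abcg1, its partner in efflux, had 12 and 3 counts. With 15 counts in all it stayed out of the counts of genes, and its log2 ratio of 1.84 had a wide interval of 0.11 to 4.46.

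An intron of Srebf2 holds another microRNA, miR-33, known to repress Abca1. A search for its seed match, added after these values were seen, used the RefSeq sequence (GRCm38.p6, chr15:82198127-82198147, plus strand), shown with its seed in capitals and with the 3 matches in the Abca1 3′-UTR, which lie within chr4:53033787-53033808 on the minus strand of GRCm38.
miR-33-5p: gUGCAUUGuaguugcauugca
Abca1, match 1: cactattCAATGCAatgcact
Abca1, match 2: ttcaatgCAATGCActtcaat
Abca1, match 3: tgcacttCAATGCAacgagaa
Matches 1 and 2 overlap by 2 bases. In 3′-UTRs, Abca1, Acaca and Nsdhl held a 7mer-m8 match to miR-33-5p (CAATGCA), 3 of 27 genes against 7.55% of the genes with at least 20 counts and a 3′-UTR. Abca1 and Nsdhl also held an 8mer match. The log2 ratio was 0.81 for Abca1, -0.13 for Acaca and -0.38 for Nsdhl, so the genes with a match did not share a direction. The level of miR-33 itself was not analysed here, and its part in these ratios was not tested.

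The start regions of the genes are described because many of the enzymes were lower together. RefSeq windows of 300 bases (250 before to 50 after each start, GRCm38.p6) were matched by symbol for 22 of the 29 genes, and Fdps, Fdft1, Sqle, Stard4, Scd1, Scd2 and Abcg1 had none. The CCAAT box (CCAAT on either strand), bound by NF-Y, a known partner of SREBP, lay in a window of 18 of the 22 genes and of 12 of the 13 synthesis enzymes, against 43.7% of the genes with at least 20 counts. The letters GGGCGG of Sp1 sites on either strand were in 19 of the 22, against 70.5%. The E-box CACGTG was in 5 of 22, against 11.9%, and the sterol element TCACNCCAC, on either strand, in 1 of 22, Hmgcs1, against 1.37%. Only these exact letters were searched, so a window without them may still hold a sterol element spelled otherwise. Genes without a CCAAT box in a window were Abca1, Acaca, Acat2 and Scap.

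The 150 bases before the start are printed for 4 genes. In each, the RefSeq start is also the start of a GENCODE transcript, and the stretch overlaps no exon of that gene. They are Mvd (at least 1.5-fold lower), Mvk (lower by less), Ebp (higher by less than the fold) and Abca1 (higher and without a CCAAT box). Pmvk, Insig2, Srebf1, Scap, Acly, Acaca and Fasn also met this rule and are not printed. Of these, Acly and Scap were at least 1.5-fold lower and had no CCAAT box in the stretch. Pmvk, Fasn and a window of Insig2, lower by less, held a box there, whereas Srebf1 and Acaca did not. CCAAT boxes are in capitals, ATTGG being the box on the other strand. The stretches are chr8:122443423-122443572 (Mvd, minus), chr5:114444119-114444268 (Mvk, plus), chrX:8193513-8193662 (Ebp, minus) and chr4:53159896-53160045 (Abca1, minus).
Mvd: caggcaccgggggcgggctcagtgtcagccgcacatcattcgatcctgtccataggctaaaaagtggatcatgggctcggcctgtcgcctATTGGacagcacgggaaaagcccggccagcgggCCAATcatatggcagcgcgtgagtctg
Mvk: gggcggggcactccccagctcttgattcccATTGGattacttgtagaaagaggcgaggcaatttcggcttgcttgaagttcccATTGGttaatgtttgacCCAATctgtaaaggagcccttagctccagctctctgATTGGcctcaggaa
Ebp: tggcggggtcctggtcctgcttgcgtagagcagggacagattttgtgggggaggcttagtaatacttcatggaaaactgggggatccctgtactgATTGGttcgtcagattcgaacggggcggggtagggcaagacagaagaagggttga
Abca1: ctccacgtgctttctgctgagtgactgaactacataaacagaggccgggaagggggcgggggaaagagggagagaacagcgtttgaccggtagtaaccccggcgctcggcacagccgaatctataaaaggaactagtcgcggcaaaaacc
Of the genes with a ratio above 0, only Ebp had a box in its window, Fdft1 and Scd2 having no window, and these letters only describe the windows.

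Further genes of lipid metabolism, 68 in a list for the same pathways were read beside the members. Of the 60 with at least 20 counts, 12 (20%) were at least 1.5-fold lower and 3 (5%) that much higher, beside 8.94% and 11.7% of all genes, and their median log2 ratio was -0.11. Among those farthest from 0 were Gpam, Abcg4, Fads2 and Vldlr. Gpam, which starts glycerolipid synthesis, had 171 counts with the mimic and 466 with the scramble, a log2 ratio of -1.44. The fatty acid desaturase Fads2 had 437 and 876 counts, 49.9% of the scramble level. Both had intervals below 0, and Gpam was lower than any member but Stard4. Vldlr, a lipoprotein receptor, was higher, with 1874 and 961 counts and a log2 ratio of 0.96, whereas the transporter Abcg4 had only 7 and 15 counts and an interval across 0.

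The groups of the longer list are given side by side, and differences between them were not tested. Over all genes with at least 20 counts, 8.94% were at least 1.5-fold lower and 11.7% that much higher. Among 10 further genes of sterol synthesis, 3 were at least 1.5-fold lower and 0 that much higher, with a median of -0.27. Among 9 further genes around SREBP control, such as the proteases and ubiquitin ligases of the pathway, 0 were at least 1.5-fold lower or higher, with a median of -0.04. Among 19 further lipogenic genes, 5 were lower and 0 higher, with a median of -0.20. Among 14 genes of sterol uptake and transport, 2 were lower and 2 were higher. Among 8 genes tied to LXR and oxysterols, 2 were lower and 1 was higher, with a median of -0.11. The lower ones, Apoe and Abcg4, had few counts and intervals across 0. Textbook targets of SREBP2, a list of 24 that shares 19 genes with the members, had 16 lower and 0 higher of 23 with at least 20 counts. The 5 targets outside the members had 4 lower and 0 higher. Of the targets outside the members, Sc4mol had 786 counts with the mimic and 1222 with the scramble, a log2 ratio of -0.64, whereas Sc5d had 1679 and 1958 counts and a log2 ratio of -0.22. Of 7 LXR target genes with at least 20 counts, Abca1 included, 1 was higher and 1 lower, with a median of -0.07. The lower one, Apoe, had only 8 counts with the mimic and 13 with the scramble, and its interval lay across 0.

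**Figure D3:**
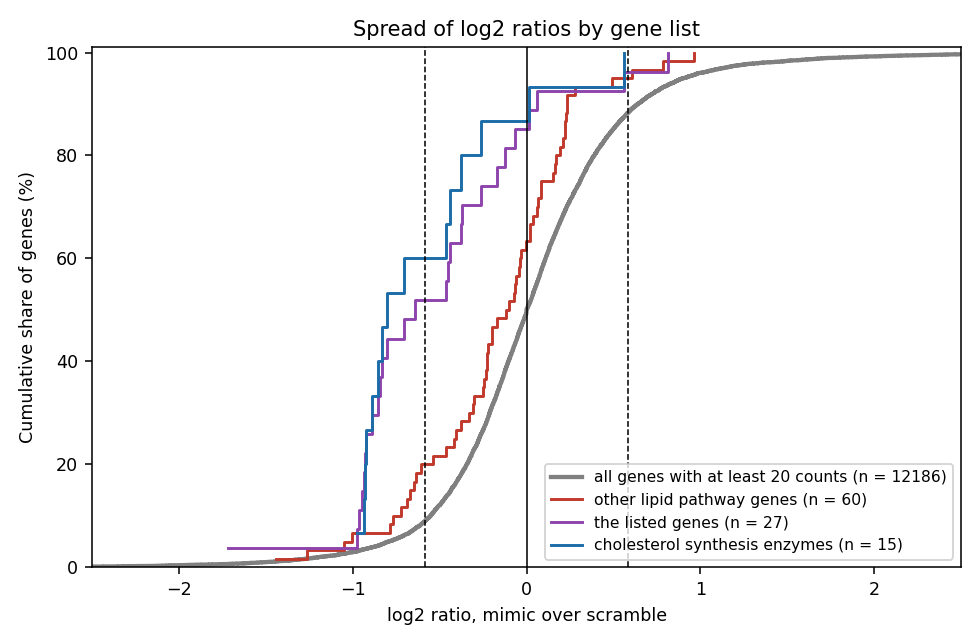
Cumulative share of genes (percent) by log2 ratio of mimic to scramble, for all 12186 genes with at least 20 counts, 60 other lipid pathway genes, the 27 members ("the listed genes") and the 15 cholesterol synthesis enzymes among them; dashed lines mark 1.5-fold. The curve of the enzymes lies farthest left, with a median of -0.80, and that of the other pathway genes close to the curve of all genes, with a median of -0.11.

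Several measures moved with these ratios or bear on them. Over all genes, the log2 ratio was lower for longer transcripts, with medians of 0.32, 0.09, -0.03, -0.11 and -0.23 from the shortest to the longest of 5 bins of equal gene number. The members had a median length of 3931 nucleotides, against 3431 for all genes. After regression on length and GC content, which accounted for 14.8% of the variance over 12077 genes, the 14 genes were still at least 1.5-fold lower, Mvk and Pmvk joined them, and the background was 8.15% lower and 8.97% higher. On that scale the log2 ratio of Stard4 was -1.56 and that of Abca1, the longest transcript among the 29 genes, was 1.20. The lipogenic genes moved from a median of -0.13 to 0.06, so their direction depended on the scale. The part of length in the single ratios was not tested.

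**Figure D4:**
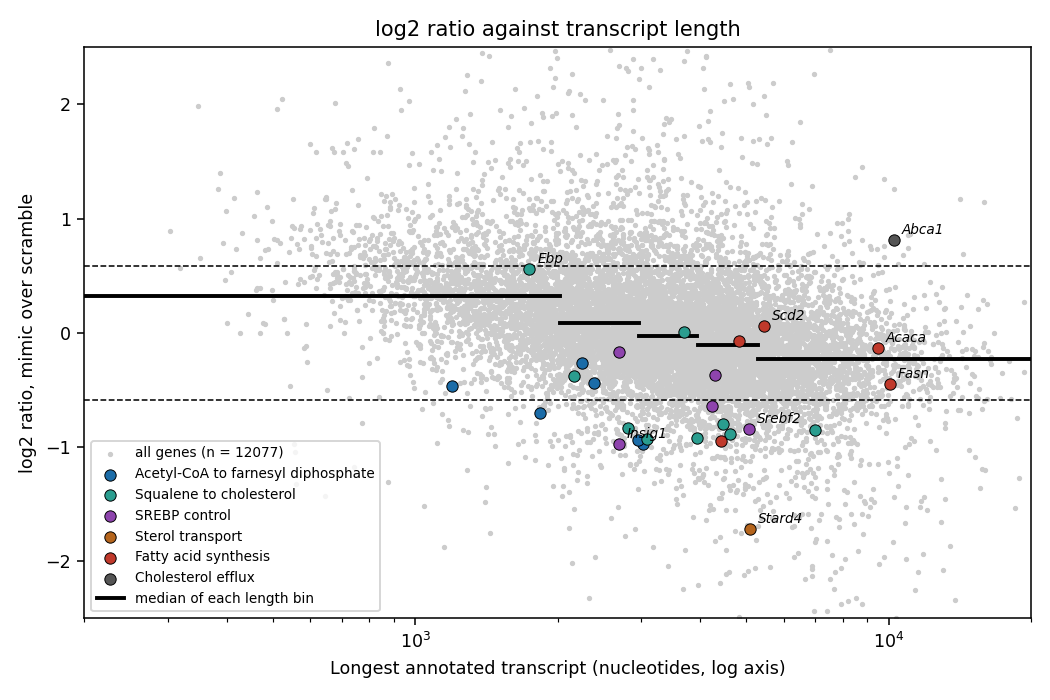
log2 ratio of mimic to scramble against the length of the longest annotated transcript (nucleotides, log axis), for 12077 genes in grey and the 27 members in colour by role; black bars are medians of the 5 length bins and dashed lines mark 1.5-fold. The bars step down from 0.32 to -0.23, and the lower members lie well under the bar of their own length.

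Some transcripts share sequence with others. Stretches of 50 bases were taken from the transcript of each gene with the longest coding region, and its other transcripts were not searched. Of these stretches, 86.4% for Fdps, 52.6% for Acaca, 45.9% for Acat2, 30.7% for Fdft1 and 30.5% for Idi1 also occurred in transcripts of other genes. Among those were Acat3 for Acat2, processed pseudogenes for Idi1 and, for Fdps, chiefly Gm43738. Gm43738 overlaps 26.7% of the exon bases of Fdps on the same strand. The counts of these 5 genes are therefore uncertain. Without these 5 genes, 12 of 22 were at least 1.5-fold lower and 1 higher, with a median of -0.67. In 16 of the 29 genes, Stard4, Sqle, Srebf2, Acly and Abca1 among them, no stretch of the searched transcript was shared. Depth was alike, with 18628310 and 18717225 reads on genes, and reads that aligned at several places made up 39.8% of reads with the mimic and 35.6% with the scramble.

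The label of a Sertoli line was checked against markers. Of 11 Sertoli markers 5 had at least 20 counts, Sox9 with 1228 and 1070 counts and Gata4 with 341 and 365 among them, while Fshr was listed at 0. The summed level of the 11 was 107 CPM with the mimic and 92.1 with the scramble. Leydig cell markers summed to 4.5 and 4.77, germ cell markers to 9.16 and 9.75, and macrophage markers to 5.89 and 3.32, with Ptprc and Emr1 at 0 and most of the difference from Cd14 (81 and 26 counts). Peritubular and fibroblast markers summed to 12655 and 12553 CPM, led by Acta2 and the collagens. Within this sum Acta2 was lower with the mimic (73076 and 101778 counts, a log2 ratio of -0.48) and Col1a2 higher (112585 and 81419 counts, 0.47). The part of these markers in the ratios was not tested.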

How the data were processed

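RNA was pulled down with Ago2 antibody from TM4 cells that had carried miR-471-5p mimic or a scramble for 48 h (1 library each). The authors deposited a table of raw counts per gene symbol for each library. The submitters' processing notes name CASAVA 1.8.2, TopHat2 2.0.8b, HTSeq and the build mm9; the annotation and strand setting are not given in the sources used here. Rows that name no gene were left out of library sizes; reads aligned at several places alone were 39.8% of reads with the mimic and 35.6% with the scramble.

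Depth was 18628310 (mimic) and 18717225 (scramble) reads on genes, so 3 counts, the floor of detection, were 0.161 and 0.16 CPM. Library sizes were scaled by TMM (edgeR 4.0.16, R 4.3.3). CPM values use these sizes, and 0.5 counts were added to each library for the log2 ratio. Genes needed at least 20 counts over both libraries, and a gene was called at 1.5-fold. Each ratio has a 95% interval from the exact Clopper-Pearson bounds on the share of counts that came from the mimic library (scipy 1.17.1). It covers counting error only, since 1 library per condition gives no spread between cultures. PCR copies are not independent molecules, so it may be too narrow even for that error. No test across genes can be fitted without replicates. The ratios and intervals were tried on simulated counts with counting error only and known library sizes. That trial does not cover TMM scaling, PCR copies or spread between cultures. The 29 genes and the other lists were chosen with earlier results of these data known. All members were accounted for; of 68 other pathway genes, the rule named the 6 farthest from 0 because more than 12 were past the fold (some are not reported here), and the other genes named from the SREBP2 target list were chosen after their values were seen. Lengths, GC content and seed matches used GENCODE M21 transcripts (GRCm38), and promoter windows and microRNAs used RefSeq tables (GRCm38.p6). Coordinates are therefore not those of the authors' build. Alternatives were DESeq2 (1.42.0) size factors, total counts, other count minimums and added counts, a 2-fold threshold, a regression on length and GC content, and another choice of 3′-UTR; leaving out genes with shared sequence and the miR-33-5p search were added after the data were seen.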

Additional observations from a re-analysis of the deposited data

How the results depend on the processing

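Of 188 values recomputed for 40 results, 165 kept their value within the limits set (within 1.5 times for counts of genes), 23 moved and 0 of the called values changed sign. No paired analysis was possible because each condition had 1 library, and for the same reason none could be left out. At 2-fold, the 14 lower and 1 higher members became 1 and 0, and the 12 lower and 3 higher of the other pathway genes became 4 and 0. With genes of at least 1 count, 2 members and 5 other pathway genes were at least 1.5-fold higher, and the efflux median was 1.32, since Abcg1 then entered. Under regression on length and GC content, which moved 15 results, the medians were -0.93 for the mevalonate genes, 0.06 for the lipogenic genes and 1.20 for the efflux gene. The count of members with a 3′-UTR seed match of miR-471-5p was 1 in place of 2 with the transcript of the longest coding region. DESeq2 size factors, total counts and 2 added counts moved none of these results. With 1 library each, the spread between cultures is unknown, and the counting intervals do not cover it.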
